A study of Homo sapiens with 8 samples.

Results

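The regions described here are stretches enriched in DNA double-strand breaks (BLISS+ regions) that lie next to the centromeres of 8 human chromosomes. A region was counted as near a centromere when its midpoint fell no more than 5 Mb from the centromere gap of the hg19 assembly on chromosomes 1, 2, 4, 6, 7, 8, 10 or 14. Of the 10211 regions in the lists of 4 libraries, 449 met this rule, which is 7.19% of the 6244 regions on those chromosomes. By library, 81 and 73 of these regions were listed in shNT+OHT replicates 1 and 2, and 161 and 134 in shCDK12+OHT replicates 1 and 2. Within these chromosomes, positions alone chose the regions. The chromosomes are the 8 with regions in all 4 lists, and the windows were chosen with earlier results of these data known.

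Centromeres are built on long tandem arrays of alpha satellite DNA, on which the kinetochore assembles and which spindle microtubules pull in mitosis. Around the arrays lie other satellites and large duplicated segments, whose near-identical copies make short reads hard to place. In hg19 the arrays are represented by gaps of fixed size, so the windows begin where the assembled sequence ends. Chromosome 14 is acrocentric and has a window on its long arm only. On chromosome 1 the long-arm window falls inside a block of unassembled heterochromatin of 18 Mb, so that only the short-arm side holds sequence. The 14 flanks that remained held 70 Mb counted as assembled sequence, against 1275 Mb in the rest of the same chromosomes. Any other gap in the assembly was not subtracted from either length.

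Breaks were mapped by sBLISS, in which the ends of breaks in fixed cells are ligated to a barcoded adapter and sequenced. All libraries came from U2OS, a human osteosarcoma line, carrying MycER, a Myc fusion protein that is activated by 4-hydroxytamoxifen (OHT). The shNT+OHT cells expressed a non-targeting shRNA, and the shCDK12+OHT cells an shRNA against CDK12, a kinase of the RNA polymerase II tail that supports the transcription of long genes. Both groups received 1 µg/mL doxycycline to induce the shRNA and 300 nM OHT for 40 h, then 100 ng/mL nocodazole for 8 h, and mitotic cells were shaken off, released for 18 h and fixed in 2% PFA. Each group had 2 replicates, and since every library analysed was treated with OHT, the groups are called shNT and shCDK12 below. The labels name 8 libraries, and the 4 without OHT were not analysed here, so the values below have no background from cells without active MycER. The labels do not say whether the replicates were separate cultures or whether the line is a single clone, so p-values measure only the spread between these libraries, which may be technical. The lists hold positions without counts, and the depth of each library is unknown. The whole lists held 1192 and 788 regions for shNT and 4581 and 3650 for shCDK12. The shNT lists had regions on 13 chromosomes each and the shCDK12 lists on 22 and 23, so these totals do not cover like sets. The part of library yield in any group difference was not tested.

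BLISS+ regions were denser beside the centromere gaps than along the assembled rest of the same chromosomes in each of the 4 libraries. In shNT replicate 1 there were 1.16 regions per Mb near the gaps (95% Poisson interval 0.918 to 1.44) and 0.740 per Mb in the rest. Replicate 2 of this group had 1.04 per Mb (0.817 to 1.31) against 0.435 per Mb. In shCDK12 replicate 1 the density was 2.30 per Mb (1.96 to 2.68) near the gaps and 1.87 per Mb elsewhere, and in replicate 2 it was 1.91 (1.60 to 2.27) and 1.5 per Mb. The log2 ratio of near to rest was 0.65 and 1.26 in the shNT libraries and 0.30 and 0.35 in the shCDK12 libraries. Over all libraries the ratio averaged 0.64 ± 0.44 (SD, n = 4), with an exact sign-flip permutation p = 0.13 (two-sided, 2 of 16 sign assignments; adjusted p = 0.156 over 5 comparisons), the smallest p that 4 libraries allow. The intervals assume independent regions and cover counting error only. The lengths count assembled sequence, and with the unassembled gaps kept in them the mean ratio was 0.22, above 0 in 2 of 4 libraries (exact sign-flip permutation p = 0.50).

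**Figure D1:**
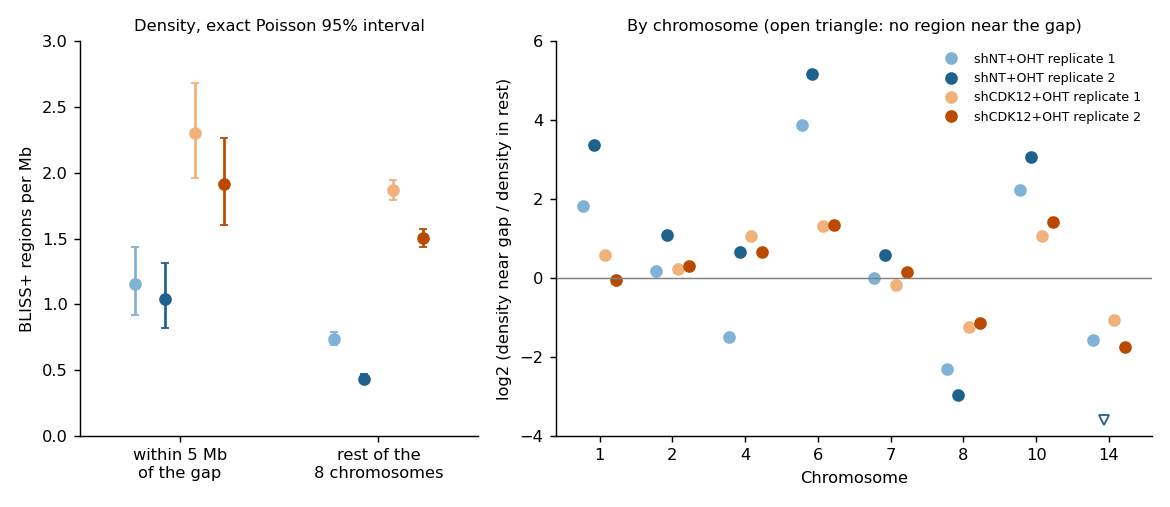
Density of BLISS+ regions (regions per Mb of assembled sequence) within 5 Mb of the centromere gaps and in the rest of the same 8 chromosomes, for each of the 4 libraries, with 95% Poisson intervals. Every library lies higher near the gaps, from 1.16 against 0.740 per Mb in shNT+OHT replicate 1 to 1.91 against 1.5 per Mb in shCDK12+OHT replicate 2.

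The higher density was not spread evenly over the chromosomes. Of the single chromosomes left out, chromosome 6 lowered the mean log2 ratio most, to 0.29, followed by chromosome 10, to 0.40, and chromosome 1, to 0.54, while leaving out chromosome 7 gave 0.72 and chromosome 8 gave 1.07. In each case 4 of 4 libraries stayed above 0. Chromosomes 6, 7 and 10, which had the most near-centromere regions in shNT, held 62 and 52 of the near-centromere regions of the shNT libraries (76.5% and 71.2%) and 79 and 77 of those of the shCDK12 libraries (49.1% and 57.5%). Their windows held 2.07 and 1.73 regions per Mb in shNT and 2.63 and 2.57 in shCDK12. The windows of the other 5 chromosomes held 0.475 and 0.525 per Mb in shNT and 2.05 and 1.43 in shCDK12, where the rest of those 5 chromosomes held 0.817, 0.506, 2.08 and 1.64 per Mb. With chromosomes 6, 7 and 10 left out together, a choice made after seeing the data, the log2 ratio was -0.78 and 0.05 in the shNT libraries and -0.02 and -0.20 in the shCDK12 libraries, with a mean of -0.24 (exact sign-flip permutation p = 0.375).

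Chromosome 6 had the highest ratio of near to rest in both shNT libraries, with a log2 ratio of 3.89 and 5.18, and 1.31 and 1.34 in shCDK12. Its window held 29 and 23 regions in shNT and 33 and 30 in shCDK12, while the rest of the chromosome held 31 and 10 regions in shNT and 210 and 188 in shCDK12. In the shNT libraries 48.3% and 69.7% of all chromosome 6 regions therefore lay in the window, and in the shCDK12 libraries 13.6% and 13.8%. Chromosome 10 had 22 and 20 regions near the gap in shNT and 33 in each shCDK12 replicate, or 27.8%, 40.8%, 14.5% and 17.8% of its regions. Its log2 ratio was 2.24, 3.08, 1.06 and 1.41, above that of chromosome 6 in shCDK12 replicate 2. On chromosome 7 the window held 11, 9, 13 and 14 regions, in the order shNT replicates 1 and 2 and shCDK12 replicates 1 and 2, and the log2 ratio of near to rest stayed between -0.17 and 0.60.

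Chromosome 8 went the other way. It carried the most regions outside its window of these chromosomes in the shNT libraries, 328 and 207, with 409 and 326 in shCDK12, while its window held only 5 and 2 regions in shNT and 13 and 11 in shCDK12. The log2 ratio of near to rest on chromosome 8 was -2.30, -2.96, -1.24 and -1.15. Its long-arm flank held no region in either shNT library and 3 in each shCDK12 library. Chromosome 14 had 2, 0, 9 and 4 regions in its window. Chromosome 1 had 5, 7, 14 and 7 regions, with a log2 ratio of 1.83, 3.38, 0.58 and -0.04. Chromosome 2 had 5, 7, 21 and 17 regions and was denser near the gap in every library, with 0.17, 1.08, 0.24 and 0.29. Chromosome 4 had 2, 5, 25 and 18 regions, with a ratio below 0 in shNT replicate 1 (-1.5) and of 0.67, 1.06 and 0.66 in the other libraries.

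**Figure D2:**
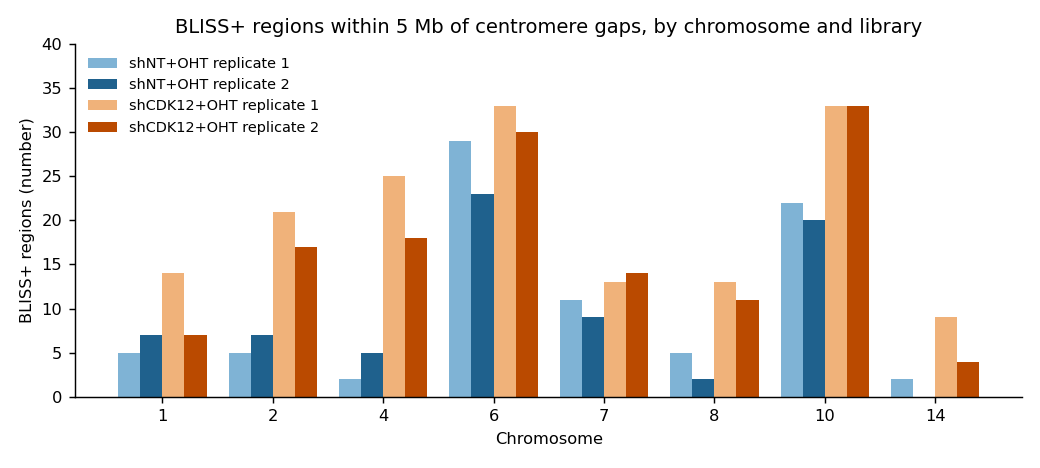
Number of BLISS+ regions within 5 Mb of the centromere gap on each of the 8 chromosomes, with a bar for each of the 4 libraries. Chromosome 6 holds 29, 23, 33 and 30 regions and chromosome 10 holds 22, 20, 33 and 33, while chromosome 8 holds 5, 2, 13 and 11.

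The density changed with distance from the gap, and differently in each group. Within the first 1 Mb, 29 and 26 regions were listed in shNT and 29 and 28 in shCDK12, so the libraries of both groups overlapped there (1.04-fold between group means, exact permutation p = 1). This stretch was the densest of the 5 steps in both shNT libraries. Of its regions, 5, 4, 15 and 7 lay outside chromosomes 6, 7 and 10. In both shCDK12 libraries the step from 1 to 2 Mb was the densest, with 48 and 40 regions against 19 and 13 in shNT. From 1 to 5 Mb the libraries held 52 and 47 regions in shNT and 132 and 106 in shCDK12, and the groups did not overlap (2.40-fold, exact permutation p = 0.33, 2 of 6 relabellings, the smallest that 2 libraries against 2 can give). In the outermost step, from 4 to 5 Mb, there were 9, 7, 25 and 19 regions, or 0.643, 0.500, 1.79 and 1.36 per Mb. Just outside the limit of the rule, from 5 to 6 Mb, there were 7, 3, 28 and 26 regions, fewer than in the step before in shNT and more in shCDK12.

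**Figure D3:**
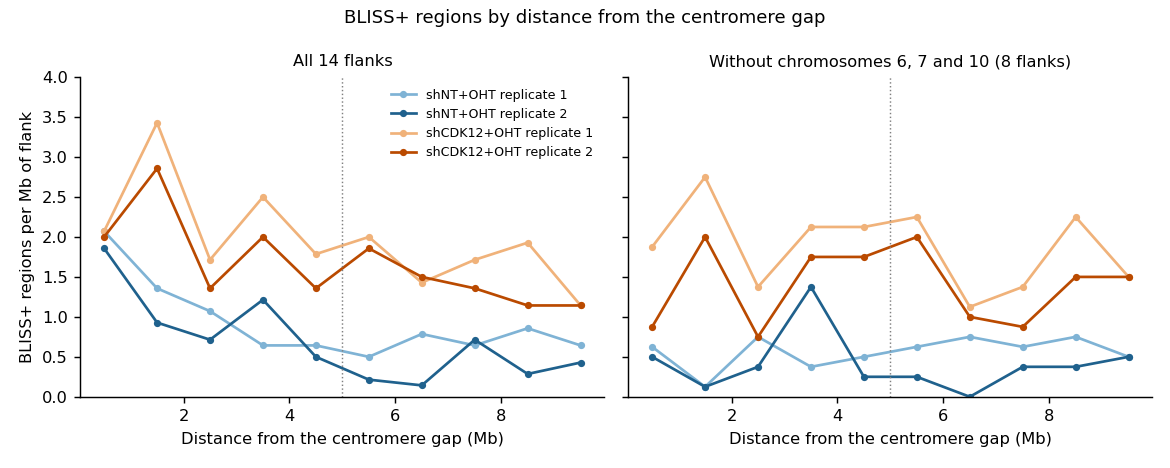
Density of BLISS+ regions (regions per Mb) by distance from the centromere gap (Mb, in steps of 1 Mb) for each of the 4 libraries. The first step holds 29, 26, 29 and 28 regions, and the step from 4 to 5 Mb holds 9, 7, 25 and 19.

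A large share of the regions next to the gaps sat in a few short stretches. On the short arm of chromosome 6, from 1 to 2 Mb from the gap, 16 and 11 regions were listed in shNT and 20 and 13 in shCDK12. On the long arm of chromosome 7, the first 1 Mb held 7, 5, 3 and 4 regions. Within 1 Mb of the gap of chromosome 10, counting both arms, there were 14, 14, 10 and 15 regions. Together these stretches, chosen after their values were seen and given without a test, spanned 4 Mb of the 70 Mb. They held 37 and 30 of the near-centromere regions of the shNT libraries (45.7% and 41.1%) and 33 and 32 of those of the shCDK12 libraries (20.5% and 23.9%). The remaining 66 Mb held 0.667 and 0.652 regions per Mb in shNT and 1.94 and 1.55 in shCDK12. At the other extreme, 12 of the 70 steps of 1 Mb held no region in any library, and each library left 37, 42, 21 and 23 of them empty. Steps were not checked for further assembly gaps, in which no region can be listed.

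**Figure D4:**
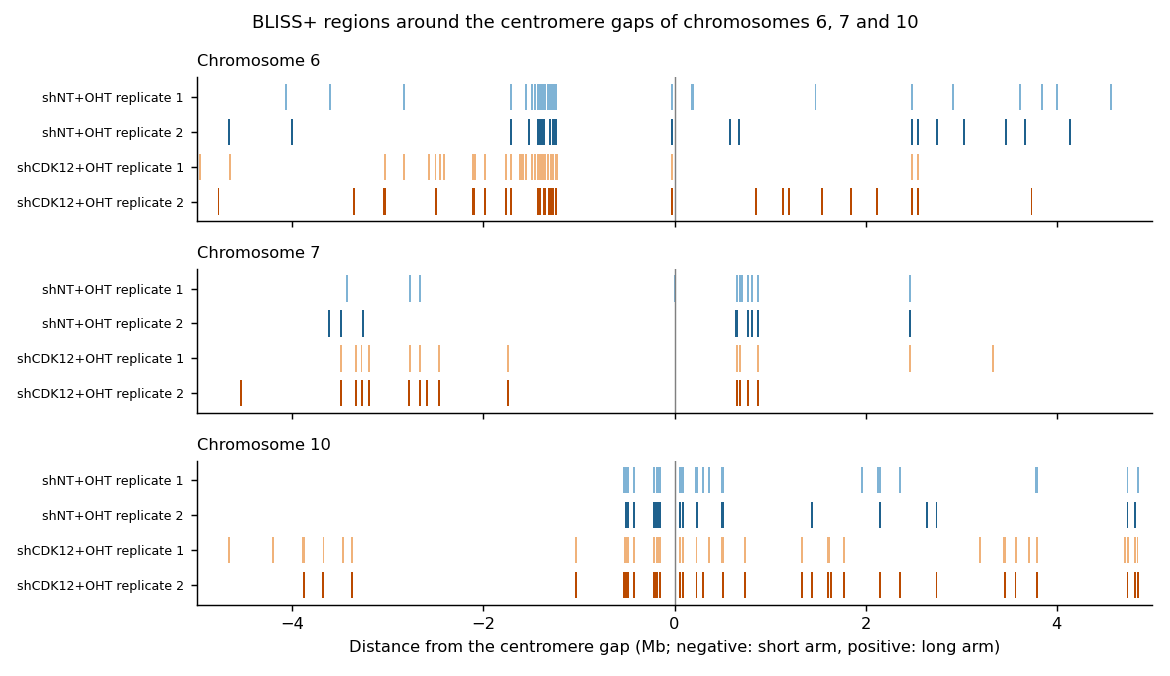
Positions of the BLISS+ regions near the gaps of chromosomes 6, 7 and 10 by library, as distance from the gap (Mb, short arm to the left, gap closed to a line, regions narrower than 20 kb drawn 20 kb wide). The dense cluster 1 to 2 Mb from the gap on the short arm of chromosome 6 holds 16, 11, 20 and 13 regions, and the clusters within 1 Mb of the chromosome 10 gap hold 14, 14, 10 and 15.

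The regions near centromeres were also wider on average. Their mean width was 5.60 and 4.08 kb in shNT and 4.46 and 3.66 kb in shCDK12, against 2.47, 2.36, 3.26 and 3.02 kb in the rest of the same chromosomes. The difference was positive in 4 of 4 libraries and averaged 1.67 ± 1.07 kb (SD, n = 4; exact sign-flip permutation p = 0.13). It was 0.915 kb without chromosome 10 and 0.900 kb without the first 1 Mb, each positive in 4 of 4 libraries. Both settings keep a region on chromosome 2 that was listed over 48 kb in every library. The median was 2 kb, a single bin, both near the gaps and elsewhere in every library, so the wider means came from the upper tail. Regions of at least 4 kb made up 37.0% (95% Wilson interval 27.3 to 47.9) and 26.0% (17.3 to 37.1) of the near-centromere regions in shNT, against 11.7% and 10.6% in the rest. In shCDK12 they made up 33.5% (26.7 to 41.1) and 32.8% (25.5 to 41.2), against 31.6% and 26.5%. The widest regions near the gaps spanned 50, 48, 52 and 48 kb, while the widest in the rest spanned 24, 14, 36 and 34 kb.

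Width and number together gave a larger contrast in covered length. Near the gaps, 454 and 298 kb were covered in shNT (6.49 and 4.26 kb per Mb) and 718 and 490 kb in shCDK12 (10.3 and 7.0 kb per Mb). The rest of the chromosomes had 1.83, 1.03, 6.09 and 4.53 kb per Mb. The log2 ratio was 1.83, 2.05, 0.75 and 0.63, with a mean of 1.31 ± 0.73 (SD, n = 4; exact sign-flip permutation p = 0.13). The mean was 0.82 without chromosome 10 and 0.31 without chromosomes 6, 7 and 10, each above 0 in 4 of 4 libraries. Both values keep chr2:89832001-89880000, a single region listed over 48 kb in every library. The whole chromosome 2 window had 58 and 60 kb covered in shNT and 110 and 94 kb in shCDK12. Whether the contrast outside chromosomes 6, 7 and 10 holds without this region was not tested. Regions of at least 10 kb near the gaps, of which there were 12, 5, 9 and 4, held 248, 114, 254 and 100 kb of the covered length. In both groups replicate 1 had the larger number and the larger length of such regions.

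The second comparison asked whether the regions near centromeres followed the difference between shCDK12 and shNT seen along the chromosomes. Near the gaps the mean number of regions was 77.0 ± 5.66 in shNT and 147.5 ± 19.1 in shCDK12 (SD, n = 2 each; 1.92-fold, exact permutation p = 0.33). In the rest of the chromosomes it was 749 ± 274 and 2148.5 ± 330 (2.87-fold, exact permutation p = 0.33). The log2 ratio of near to rest was lower in both shCDK12 libraries than in both shNT libraries, with group means of 0.33 ± 0.04 and 0.95 ± 0.43 and a difference of -0.63 (exact permutation p = 0.33, adjusted p = 0.417 over 5 comparisons). Covered length near the gaps was 376 ± 110 kb in shNT and 604 ± 161 kb in shCDK12, 1.61-fold higher, against 3.73-fold in the rest, and its log2 ratio differed by -1.25 (exact permutation p = 0.33). The difference in density was -0.28 without chromosome 6 and -0.30 without the first 1 Mb, and in both cases the libraries of the groups overlapped (exact permutation p = 1). It was -0.32 without shNT replicate 2, -0.94 without shNT replicate 1, -1.06 without chromosome 8, and 0.25 without chromosomes 6, 7 and 10 together.

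The windows differed in this respect. On chromosome 6 the number of regions was 1.21-fold higher in shCDK12 than in shNT near the gap and 9.71-fold higher in the rest of the chromosome. On chromosome 10 the values were 1.57-fold and 4.02-fold, and on chromosome 1 they were 1.75-fold and 7.94-fold. On chromosomes 8, 4 and 14 the order turned, with 3.43-fold near the gap against 1.37-fold on chromosome 8, 6.14-fold against 2.66-fold on chromosome 4, and 6.50-fold against 3.38-fold on chromosome 14. These windows held few regions in shNT, and each fold is a ratio of group means with no test of its own.

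The regions near centromeres were found again in the other group more often than those elsewhere. In shNT, 45 of 81 (55.6%, 95% Wilson interval 44.7 to 65.9) and 47 of 73 (64.4%, 52.9 to 74.4) shared at least 1 bp with a region of either shCDK12 library, against 39.8% and 46.8% in the rest. In shCDK12, 48 of 161 (29.8%, 23.3 to 37.3) and 49 of 134 (36.6%, 28.9 to 45.0) were touched by a region of shNT, against 15.7% and 19.4%. The difference was 15.8, 17.5, 14.1 and 17.2 percentage points and averaged 16.1 ± 1.58 (SD, n = 4; higher in 4 of 4 libraries, exact sign-flip permutation p = 0.13). The values of both groups count the same overlaps from either side, so they are not 4 independent values. Without chromosome 10 the difference was 8.76 points and without the first 1 Mb 5.98 points, and without chromosomes 6, 7 and 10 it was 1.76 points, above 0 in 3 of 4 libraries (exact sign-flip permutation p = 0.375). Width can raise such a share, since a wider region has more bases to share. Among regions of a single 2 kb bin, a choice made after seeing the data, the shares near the gaps were 37.3%, 51.9%, 18.7% and 26.7%, against 35.2%, 42.5%, 11.4% and 15.6%, and the difference averaged 7.43 points (exact sign-flip permutation p = 0.13).

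Sharing with the other replicate of the same group was higher near the gaps in shNT and not in shCDK12. In shNT, 32 of 81 regions (39.5%, 29.6 to 50.4) and 38 of 73 (52.1%, 40.8 to 63.1) were touched by the other replicate near the gaps, against 22.5% and 39.1% in the rest. In shCDK12, 90 of 161 (55.9%, 48.2 to 63.3) and 96 of 134 (71.6%, 63.5 to 78.6) were touched, against 57.1% and 71.7%. The difference was 17.0 and 13.0 points in shNT and -1.24 and -0.06 points in shCDK12 (mean 7.17, exact sign-flip permutation p = 0.50). The replicates of a group share the same overlaps, so these values are not independent. The direction in shCDK12 depended on the setting. The difference was positive in 4 of 4 libraries with windows of 2 Mb (mean 19.0 points) or 10 Mb (5.07) and for regions of at least 4 kb (23.2). It was also positive in 4 of 4 libraries without chromosome 1 (9.12) or 6 (9.68). These means are over the libraries of both groups and do not give the size in shCDK12.

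**Figure D5:**
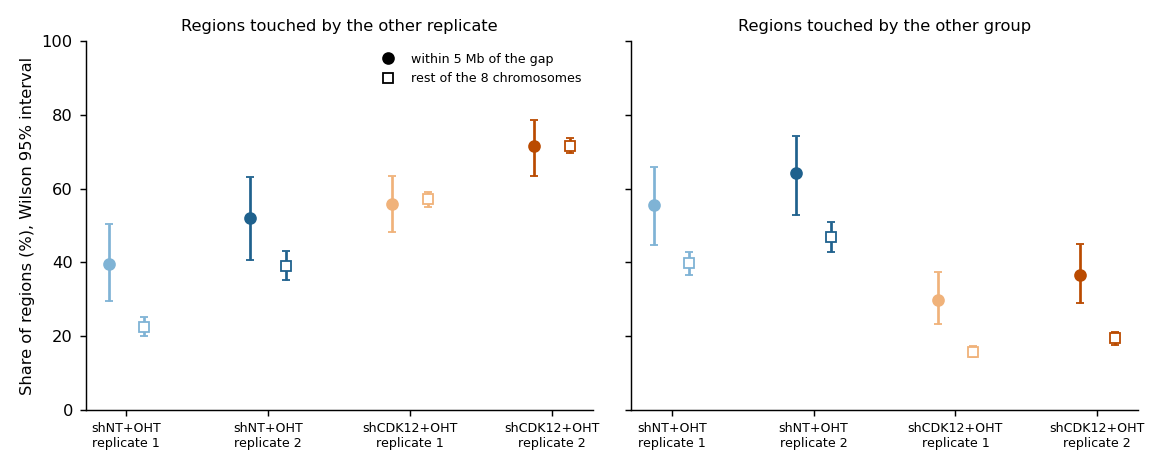
Share of BLISS+ regions (%) touched by the other replicate of the group and by the other group, near the centromere gaps and in the rest of the same chromosomes, for each of the 4 libraries with 95% Wilson intervals. Sharing with the other group is higher near the gaps in every library, by 14.1 to 17.5 percentage points.

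Joining the lists merged regions that overlapped or abutted. A merged region can thus hold regions of different libraries that share no base. The near-centromere regions formed 247 merged regions among the 3868 on these chromosomes. Of these, 26 (10.5%, 95% Wilson interval 7.29 to 15.0) held a region of every library, against 119 of 3621 (3.29%) in the rest of the same chromosomes and 2.23% over all chromosomes. The 8 chromosomes are the only ones with regions in all 4 lists, so none of the others could hold such a region, and the shares over all chromosomes are partly set by this. The difference between near and rest was 7.24 percentage points (Newcombe 95% interval 3.94 to 11.7). This interval treats the merged regions as independent and does not measure the spread between libraries. Regions listed in both groups numbered 55 (22.3%), with 13.7% in the rest and 10.7% over all chromosomes. Those listed in shNT only numbered 54 (21.9%), close to the 20.6% of the rest and against 15.0% over all chromosomes, and those in shCDK12 only numbered 138 (55.9%), against 65.7% and 74.3%. Only 4 (1.62%) were in both shNT replicates and in no shCDK12 library, where the share was 1.66% in the rest and 0.984% over all chromosomes. For both shCDK12 replicates and no shNT library the number was 55 (22.3%), against 30.3% and 34.0%.

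The 26 regions found in every library lay mostly close to the gaps. Of them 15 lay within 1 Mb of the gap and 21 within 2 Mb, a distance that held 104 of the 247 merged regions. Their mean width was 13.7 kb, compared with 7.33 kb for the regions of every library in the rest of the chromosomes, but the medians were 7 and 6 kb. There were 9 on chromosome 10, 8 on chromosome 6, 3 on chromosome 2, 2 on each of chromosomes 1, 7 and 8, and none on chromosomes 4 and 14. The summed width of these 26 in each list was 300 and 210 kb in shNT and 326 and 200 kb in shCDK12, so replicates of a group differed more than the groups did, and 6 of the 26 had the same width in all lists. Among those, chr1:121330001-121334000 was listed over 2 kb in each library within a merged width of 4 kb, so its positions differed between lists.

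The widest merged region, chr10:39104001-39156000, lay on the short arm 0.17 Mb from the gap. It was listed over 50 and 18 kb in the shNT replicates and over 52 and 8 kb in the shCDK12 replicates. Farther out on the same arm, 0.504 Mb from the gap, chr10:38772001-38820000 was listed over 36, 26, 48 and 18 kb in the same order. In both, replicate 1 of each group was the wider. The region chr2:89832001-89880000, 2.44 Mb from the gap on the short arm, was listed over the same 48 kb in every library. The longest regions of the windows on chromosomes 6 and 7 were also found in every library. On chromosome 6, chr6:57370001-57382000 spanned 12, 8, 8 and 8 kb and chr6:57386001-57398000, of the same merged width, 12, 2, 12 and 2 kb. On chromosome 7, chr7:61744001-61758000 spanned 10, 6, 10 and 6 kb.

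The regions listed in both replicates of a single group were shorter. Merged width is the union of the lists and can only grow as more lists are joined, so this order is partly set by construction. Of the 4 found in both shNT replicates alone, the longest were chr7:61906001-61914000 and chr6:57540001-57546000, each listed over 6 and 2 kb. In the chromosome 7 region, with a merged width of 8 kb, the stretches of the replicates abut and share no base. The others were 2 regions of 2 kb, of which chr4:45378001-45380000 comes first by position. In both shCDK12 replicates alone, the longest was chr14:20330001-20340000, with 10 and 6 kb, followed by 7 regions with a merged width of 8 kb. The first of these by position were chr1:117906001-117914000, with 4 and 8 kb, and chr4:48340001-48348000, with 8 and 6 kb. The regions on chromosomes 14 and 1 were also the longest in their windows, and that on chromosome 4 was 1 of 3 of equal width. In the window of chromosome 8 the longest, chr8:42750001-42756000, was listed over 6 and 2 kb in shCDK12 and in neither shNT library. A region missing from a list fell short of the calling threshold there and may still hold breaks.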

How the data were processed

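sBLISS lists of 4 U2OS MycER libraries were analysed. The deposited values are coordinates (chromosome, start and end) of regions that the authors called in each library. The study describes alignment, removal of poorly mapped reads and of PCR duplicates by molecular identifier, counting in bins of 2 kb, a fixed coverage threshold, and joining of bins across gaps of up to 2 kb. Whether the same threshold and any down-sampling were used for all 4 lists is not given in the sources used here. A fixed threshold makes the number of regions depend on library yield. Coordinates are of hg19, per the labels, and are printed counted from 1. No hg19 sequence or gene annotation was used here, and therefore no sequences or genes are given.

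Lengths left out only the centromere gaps, the chromosome 1 heterochromatin gap and the short arm of chromosome 14. Gap edges were rounded to 0.1 Mb, and 4 regions lay inside a gap as rounded. The number of regions, covered length, width and overlap (at least 1 bp) were computed for each library. Merged regions joined regions of any list that overlapped or abutted. Libraries, not regions, were the replicates. Near and rest were compared by exact sign-flip permutation over 4 libraries, and groups by exact permutation over 6 relabellings, with Benjamini-Hochberg adjustment over 5 comparisons. Shares have Wilson 95% intervals, densities Poisson and the difference in the share found in all libraries a Newcombe interval. All of these treat regions as independent and cover counting error only. The regions named were the 3 longest merged regions found in all libraries, in both replicates of shNT alone and in both of shCDK12 alone, and the longest of each window. The windows and comparisons were chosen with earlier results of these data known. Alternatives were other window sizes, region definitions, overlap rules and lengths, and leaving out chromosomes or libraries. Python 3.11.15, NumPy 2.4.6, SciPy 1.17.1 and matplotlib 3.10.9 were used, and the scripts were tested on simulated data.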

Additional observations from a re-analysis of the deposited data

How the results depend on the processing

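Of 144 alternative values for 7 results, 7 changed sign and 5, all of the share found in all libraries, moved outside the 95% interval of that difference. That interval treats merged regions as independent, so leaving it marks size and is no test. The other 132 kept their sign, which says nothing of their size. Some of them repeat the main value by construction, such as the group difference in density with blocking or with the gaps kept. Over all alternatives the density ratio ranged from -0.24 to 1.48 and its group difference from -1.91 to 0.25 (log2), the ratio of covered length from 0.31 to 2.17, the difference in width from 0.900 to 3.71 kb, replicate sharing from -1.39 to 23.2 points and group sharing from 1.76 to 31.1 points. With the gaps kept in the lengths the density ratio was 0.22, above 0 in 2 of 4 libraries. No test of these libraries could pass a threshold of 0.05. Leaving out chromosomes 6, 7 and 10, chosen after seeing the data, turned the density ratio to -0.24 (log2), its group difference to 0.25 and the difference in replicate sharing to -0.0777 points. Replicate sharing also turned to -0.866 points without the first 1 Mb and to -1.39 points for single-bin regions, the latter chosen after seeing the data. Leaving out a library also removes the replicate-sharing value of its partner. The values left are therefore the group means, -0.646 points in shCDK12 and 15.0 in shNT, and are no separate check. The negative mean is counted among the sign changes once for each shNT replicate left out. The share found in all libraries, 7.24 points higher near the gaps, was 16.9 points with windows of 2 Mb, 3.32 with 10 Mb, 12.9 for regions of at least 4 kb, 2.03 without the first 1 Mb and 2.38 without chromosomes 6, 7 and 10. The cause was not tested. Leaving out single chromosomes gave density ratios of 0.29 to 1.07, and single libraries 0.43 to 0.75, with group differences of -1.06 to -0.28 and of -0.94 to -0.32. Measuring the chromosome 1 long arm from the end of its heterochromatin and standardising by chromosome, both chosen after seeing the data, changed no mean's sign. Deviations of same-numbered libraries over 285 windows of 5 Mb correlated at -0.14, and the labels state no pairing by number. Blocking on replicate number gave a group difference of -0.63 (exact permutation p = 0.50). With 2 libraries in each group, this value and that of the crossed pairing, added after seeing the data, equal the unblocked value by construction. The lists carry no depth, so differences in library yield could not be separated from differences in breaks.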

Other observations

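Beyond the heterochromatin block of chromosome 1, outside the windows, the first 5 Mb of assembled long-arm sequence (142.5 to 147.5 Mb) held 14 and 13 regions in shNT and 17 and 14 in shCDK12. The rest of chromosome 1 outside this stretch and the window held 49 and 17 regions in shNT and 400 and 307 in shCDK12. The stretch was chosen after seeing the data, and no test was run on it. Of its regions, 13 and 13 in shNT and 10 and 11 in shCDK12 were touched by the other group. They covered 98, 56, 136 and 100 kb, in the order shNT replicates 1 and 2 and shCDK12 replicates 1 and 2.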
